A study of Mus musculus with 6 samples.

Results

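The genes described here encode the proteins of the mitochondrial ribosome, and they were taken as every row of the per-mouse expression table whose symbol starts with Mrpl or Mrps and a digit. That rule found 77 genes of 24239 rows, 48 of the large subunit (Mrpl) and 29 of the small subunit (Mrps), and all 77 passed the filter on low values. Ventricular tissue came from male C57BL/6 mice aged 8 to 10 weeks, with 3 sham mice and 3 paced mice. Paced mice had a bipolar catheter in the esophagus close to the atria, which drove the heart every 80 ms during 45 min, with 3 min at 120 ms before and after, in a block of 5 daily sessions and, 2 days later, another of 3. Sham mice were controls without pacing, and no allele or drug is given for either group. PolyA-enriched stranded libraries were read as paired ends of 151 bases, and each mouse has 1 FPKM value per gene, that is fragments per kilobase of transcript scaled to the size of the library.

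The mitochondrial ribosome translates the small set of messages that the mitochondrial genome encodes, all of which are core subunits of respiratory complexes I, III and IV and of ATP synthase. Its RNAs are made inside the organelle, whereas all of its proteins are encoded in the nucleus, made in the cytosol and imported. Part of the protein set has relatives in the bacterial ribosome, and the rest was added in mitochondria. Heart muscle is rich in mitochondria, and inherited defects of several of these proteins, MRPL3 and MRPL44 among them, cause cardiomyopathy in infancy. The name of a gene does not always tell where its protein sits, since structures place the products of Mrps30 and Mrps18a in the large subunit, and the product of Mrps36 is now regarded as a subunit of the 2-oxoglutarate dehydrogenase complex of the citric acid cycle.

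The members are scattered over 17 chromosomes, and their promoters were searched for short sequence cores. Of the 77 genes, 68 were matched by symbol to 74 promoters of 300 bases in RefSeq (GRCm38.p6), each running from 250 bases before to 50 after an annotated start, and both strands were searched. The core bound by nuclear respiratory factor 1 (NRF1) has 1 free base and is shown in capitals for Mrpl45 below. It was in 17.6% of these promoters. The share was 9.8% of the 11710 promoters of expressed genes (mean FPKM 1 or more) and 4.6% of all 32851 promoters. The core of the ETS family, to which the mitochondrial regulator GABP belongs, searched as CCGGAAG, was in 33.8%, against 17.0% and 8.9%. A YY1 core, AAGATGGCG, was in 10.8%, against 3.0% and 1.4%. The GC box GGGCGG was in 52.7% of the promoters, against 62.1% of those of expressed genes, and TATAAA was in 6.8%, against 7.4%. The 47 large-subunit and 27 small-subunit promoters held NRF1 in 21.3% and 11.1%, ETS in 29.8% and 40.7% and YY1 in 8.5% and 14.8%. Only 3 small-subunit promoters held the NRF1 core. The GC box was in 44.7% and 66.7% and TATAAA in 6.4% and 7.4%. The differences between subunits were not tested. At least 1 of the NRF1, ETS and YY1 cores was found for 40 of the 68 genes. That count is per gene, whereas the percentages are per promoter, and its share among expressed genes was not counted. These are matches of letters in a window, and whether a factor binds there was not measured.

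The 100 bases before the annotated start are shown for 6 members, with the NRF1 or ETS core in capitals, to set promoters that hold such a core beside promoters that do not. They were chosen among the genes with the lowest p or the highest level whose window touches no annotated exon, and Mrpl43 was added because its window holds 2 ETS cores. All are from RefSeq on GRCm38.p6 and read 5′ to 3′ on the strand of the gene.
Mrpl45 (chr11:97315616-97315715, plus strand): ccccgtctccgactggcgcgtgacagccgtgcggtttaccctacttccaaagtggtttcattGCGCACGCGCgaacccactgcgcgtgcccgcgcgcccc
Mrpl43 (chr19:45006443-45006542, minus strand): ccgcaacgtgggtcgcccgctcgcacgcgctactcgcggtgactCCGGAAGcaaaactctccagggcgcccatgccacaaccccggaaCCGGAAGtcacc
Mrps22 (chr9:98601680-98601779, minus strand): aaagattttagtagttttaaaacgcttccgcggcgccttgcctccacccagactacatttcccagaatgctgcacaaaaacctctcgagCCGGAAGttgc
Mrpl42 (chr10:95501950-95502049, minus strand): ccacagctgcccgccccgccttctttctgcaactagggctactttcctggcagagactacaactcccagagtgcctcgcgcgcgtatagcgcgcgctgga
Mrps9 (chr1:42851133-42851232, plus strand): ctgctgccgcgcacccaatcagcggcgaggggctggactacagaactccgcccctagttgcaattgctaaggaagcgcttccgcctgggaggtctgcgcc
Mrps36 (chr13:100744660-100744759, minus strand): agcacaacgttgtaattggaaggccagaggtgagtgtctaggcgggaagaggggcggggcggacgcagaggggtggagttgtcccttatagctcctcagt
The NRF1 core of Mrpl45 begins 38 bases before the start, the ETS core of Mrps22 11 bases before it, and those of Mrpl43 56 and 12 bases before it. In the longer window of 300 bases Mrps9 holds an NRF1 core and Mrpl42 a YY1 core, outside the stretch shown, while Mrps36 holds none of the 3.

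Depth was similar but not equal between mice, with 6273000 effective fragments in sham 3, the shallowest library, and 8912000 in pacing 3, the deepest. An FPKM of 10 on 1 kb of effective length then stands for 62.7 to 89.1 fragments. The sum of FPKM ran the other way, from 756535.1 in sham 3 to 658699.9 in pacing 3. Transcripts of lung epithelium were high in pacing 2 and pacing 3, where Sftpc stood at 153 and 430 FPKM, against at most 1.0 in the other 4 mice. Fat transcripts were high in the paced mice and in sham 1, with Adipoq at 27.0, 2.14 and 1.94 FPKM in the sham mice, in order of number, against 72.8, 36.2 and 28.6 FPKM in the paced mice. Ventricular muscle was well represented in every library, the 11 ventricular cardiomyocyte markers summing to between 67803 and 91590 FPKM.

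Levels of the members differed far more between genes than between mice or groups. On the FPKM scale, which is per length, the large-subunit genes had mean levels from 7.84 to 836, with a median of 73.3. The small-subunit genes ran from 13.5 to 378, with a median of 65.6. Most large-subunit genes, 40 of 48, and most small-subunit genes, 26 of 29, lay between 20 and 200 FPKM. The highest levels were those of Mrpl42 (836), Mrpl30 (430), Mrps21 (378) and Mrpl12 (313). The lowest were those of Mrpl17 (7.84), Mrpl19 (8.18), Mrpl57 (11.8), Mrps25 (13.5) and Mrps2 (19.4). The highest large-subunit transcript was thus 107-fold above the lowest, although most of these proteins are present in a single copy per ribosome and Mrpl12, which forms the mobile stalk, in several. Protein was not measured. Mean FPKM and the length of the longest annotated transcript had Spearman correlations of -0.30 (48 large-subunit genes) and -0.53 (29 small-subunit genes). The values share the same 6 libraries. FPKM is divided by transcript length, so a negative correlation is partly built in. The longest annotated transcript also need not be the one that was measured. Members with a bacterial relative had a median level of 75.7 FPKM in the large and 65.9 in the small subunit, and members added in mitochondria 49.0 and 49.8. Within a group the values were tight, with a median coefficient of variation over mice of 7.18% in sham and 5.52% in paced ventricles for the large subunit, and of 8.91% and 6.97% for the small subunit.

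**Figure D1:**
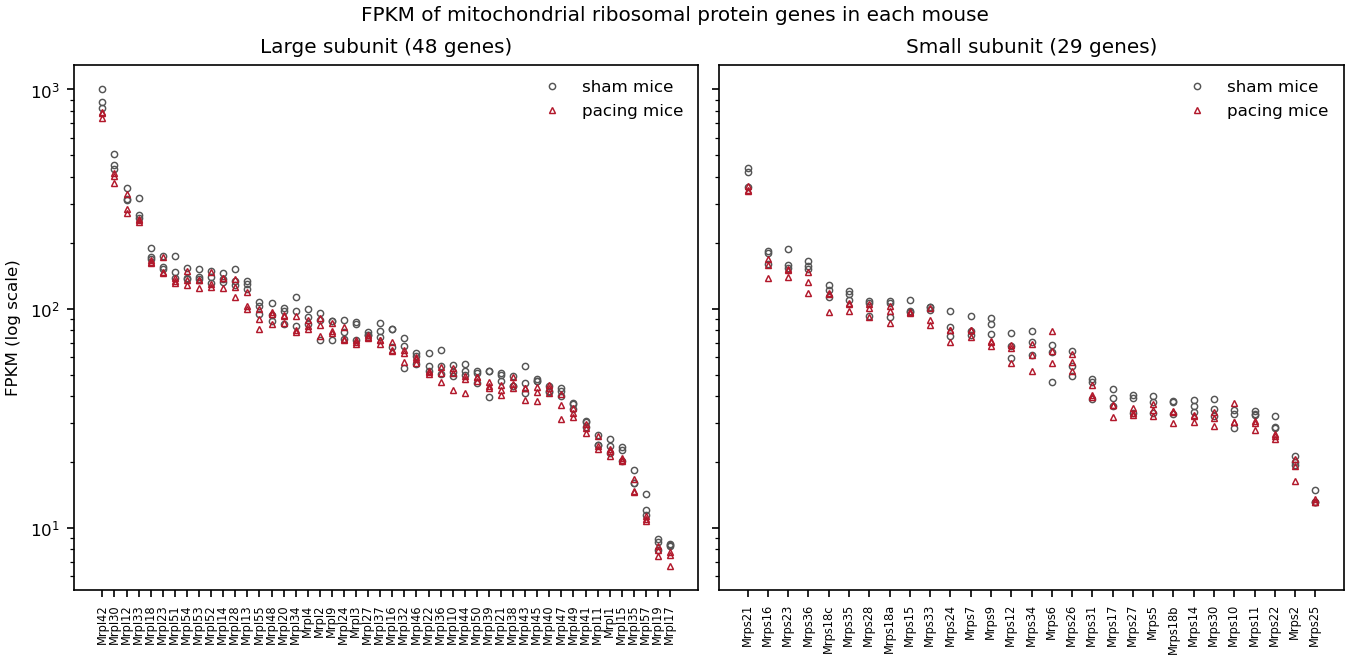
FPKM (log axis) of each of the 48 large-subunit genes and 29 small-subunit genes in the 3 sham mice (circles) and the 3 paced mice (triangles), ordered by mean level. Levels span 7.84 to 836 FPKM over genes, and at most genes the triangles lie slightly below or among the circles.

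In paced ventricles most mitochondrial ribosomal protein genes had a slightly lower mean than in sham ventricles, and no single gene passed the test. Of the 48 large-subunit genes 46 had a lower mean on the log2(FPKM + 1) scale, and of the 29 small-subunit genes 26 did, against 51.8% of the 11994 genes tested. The median difference, pacing minus sham, was -0.11 for the large and -0.14 for the small subunit, beside -0.0068 over all genes tested, and the difference between the subunits was not tested. In FPKM the median change was -7.66% for the large and -9.63% for the small subunit. Differences over the 77 genes ran from -0.26 to 0.17. No member passed an adjusted p under 0.05 in limma, and of all genes tested 0% did in either direction. The smallest adjusted p of a member was 0.476. At an unadjusted p under 0.05, 4 large-subunit and 3 small-subunit genes were lower and 0 were higher, where 3.69% of all genes tested were lower and 5.17% higher. All 3 paced values lay below all 3 sham values in 14 of the 48 and 8 of the 29 genes, against 6.97% of all genes tested. Subunits were assigned by symbol, so both of these small-subunit counts, the 3 and the 8, include Mrps36. Mrps30 and Mrps18a are likewise counted among the 29. No member had the 3 paced values above the 3 sham values, against 6.24% of all genes. In bulk tissue, fewer cells of a type and less RNA per cell cannot be told apart.

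**Figure D2:**
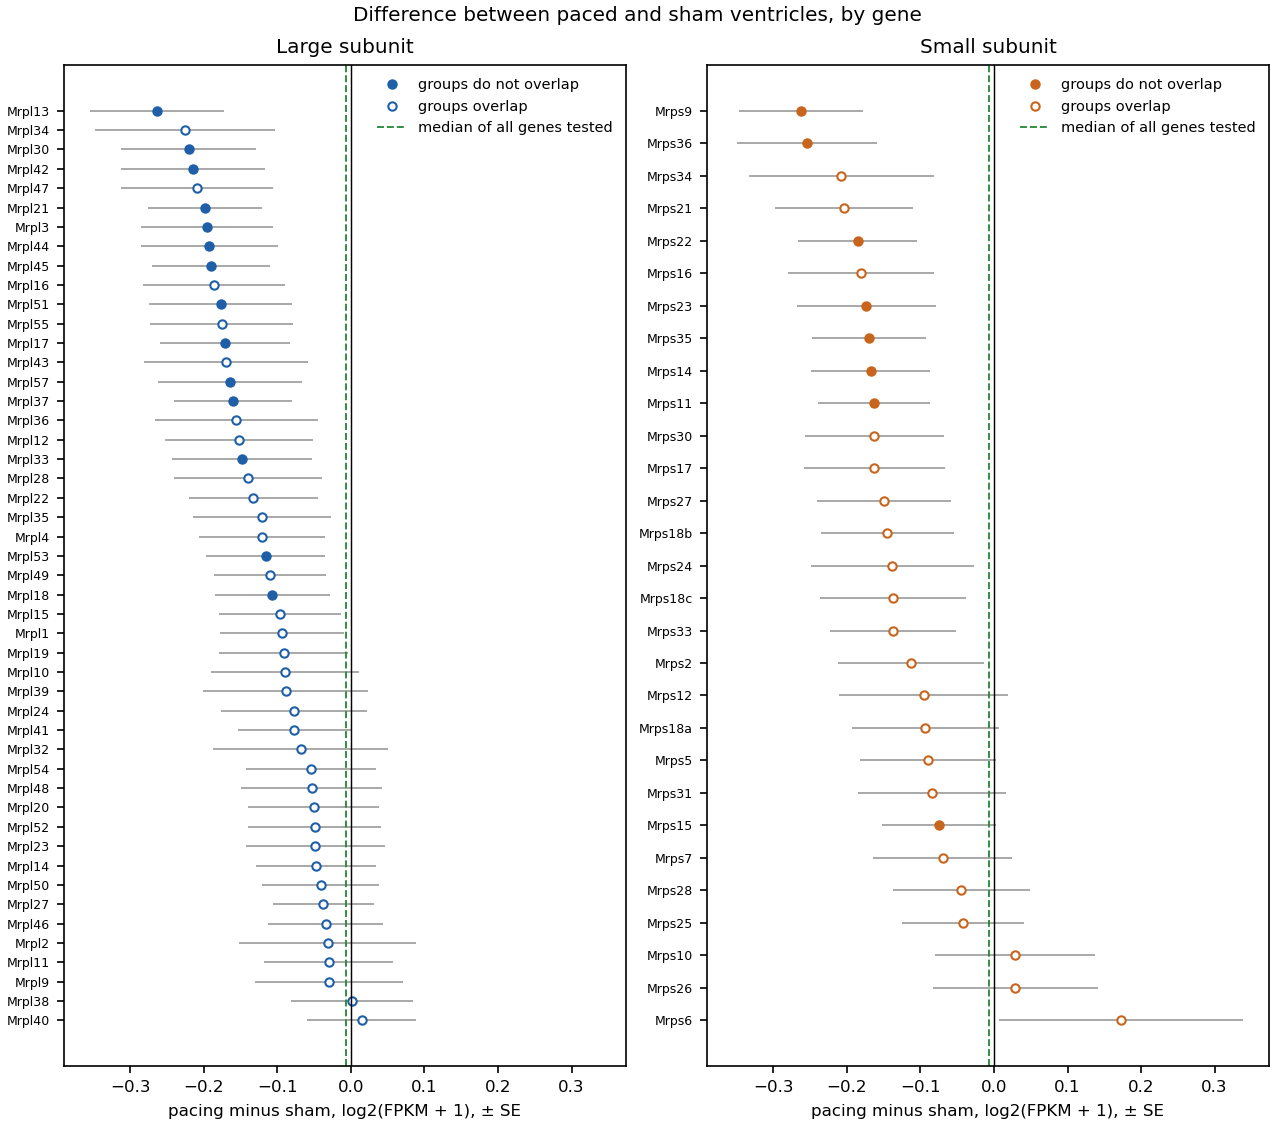
Difference between groups (pacing minus sham, log2(FPKM + 1), horizontal axis, bars are the SE from limma, 3 mice per group) for each large-subunit gene (left) and small-subunit gene (right). Nearly all points lie left of 0 and of the dashed median of all genes tested, and filled points mark the 22 genes whose groups do not overlap.

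These small shifts depended on which mice were compared. Relative to the mean of each gene over the 6 mice, the median large-subunit gene on the log2(FPKM + 1) scale had values of -0.028, 0.043 and 0.15 for sham mice 1 to 3, whereas paced mice 1 to 3 had -0.055, -0.016 and -0.10. For the median small-subunit gene the sham values were -0.024, 0.066 and 0.15, and the paced values were -0.025, -0.023 and -0.13. Both subunits thus put sham 3 highest and pacing 3 lowest, with sham 1 among the paced mice. Sham 3 was the highest of the 6 mice in 58 of the 77 genes, and pacing 3 the lowest in 43. Sham 1 lay above every paced mouse in 31 of the 77 genes, sham 2 in 51 and sham 3 in 70. The mouse with the highest members was also the shallowest library with the largest sum of FPKM, and the mouse with the lowest members the deepest with the smallest sum. When FPKM was rescaled to the same sum, the medians were -0.036 and -0.061, with 33 large-subunit and 22 small-subunit genes lower, while the median of all genes moved from -0.0068 to 0.062 and the share of all genes that were lower from 51.8% to 32.2%. Without sham 3 the medians were -0.059 and -0.095, with 39 and 24 genes lower, against 50.9% of all genes. None was at an unadjusted p under 0.05 in limma. Without sham 1 the medians were -0.16 and -0.18, with 48 and 28 genes lower, against 53.8% of all genes. In that fit 8 genes in each subunit were lower at an unadjusted p under 0.05 in limma. The share of all genes at that unadjusted p was not counted, so the 8 and 8 have no background beside them. Still no member passed the adjusted threshold, which 99 genes of the table then passed upwards and 1 downwards.

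**Figure D3:**
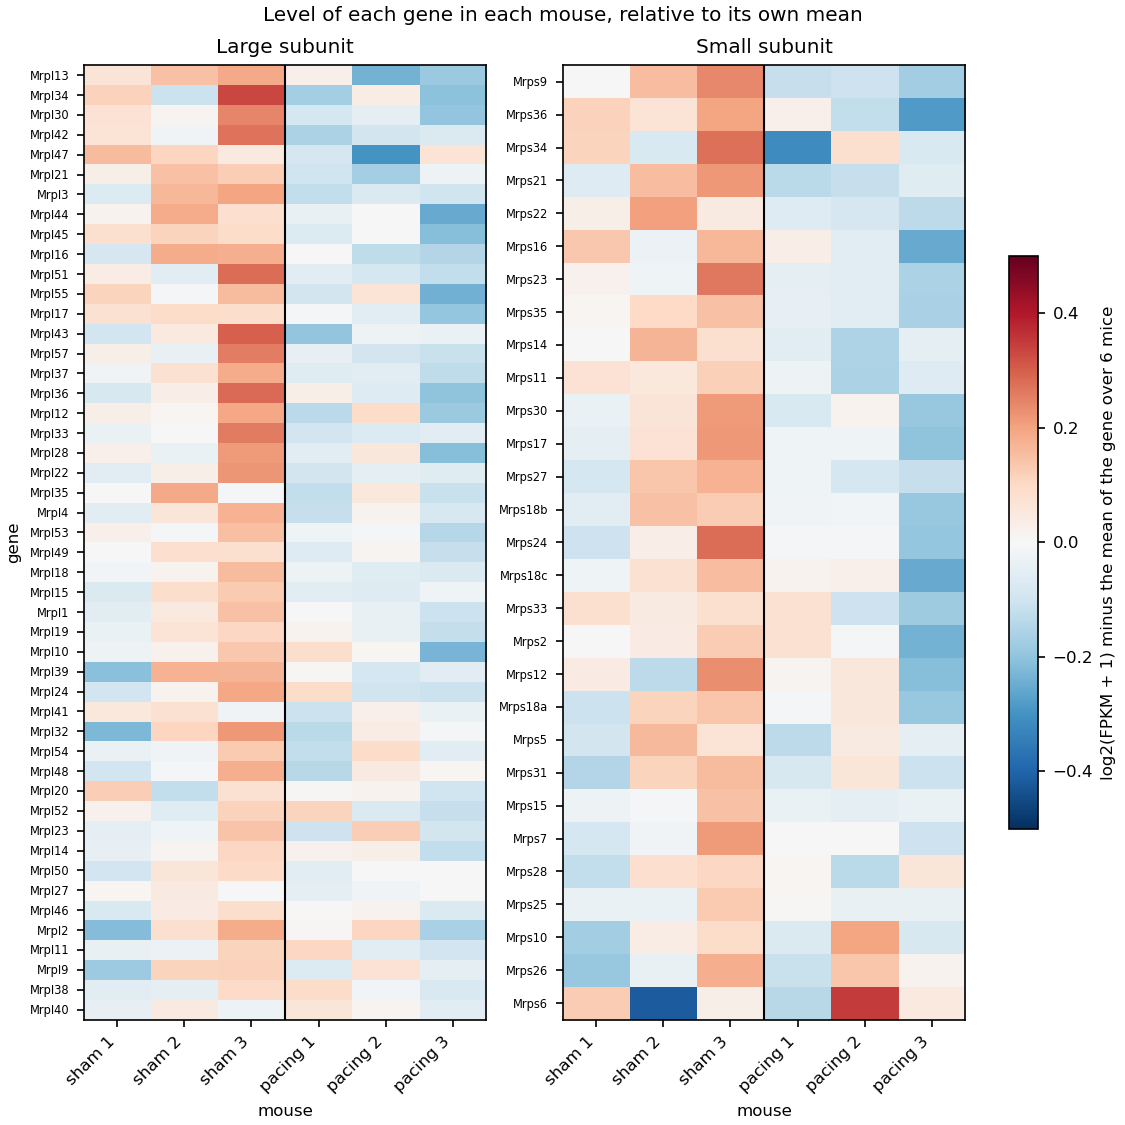
Level of each gene (rows) in each mouse (columns) as log2(FPKM + 1) minus the mean of the gene over the 6 mice, red above and blue below it, with genes ordered by the difference between groups. The column of sham 3 is red in nearly every row and that of pacing 3 blue, while sham 1, pacing 1 and pacing 2 are paler.

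Among large-subunit genes the lowest p belonged to Mrpl13, whose product has a bacterial relative. Its FPKM was 123, 130 and 134 in sham mice 1 to 3, against 120, 99.5 and 103 in paced mice 1 to 3, so that the groups did not overlap but pacing 1 lay close to sham 1 (log2 fold change -0.26, SE 0.09, 95% interval -0.47 to -0.056, limma adjusted p = 0.492). Mrpl13 lies on chromosome 15 from 55534094 to 55557748 on the minus strand, and its exons overlap those of Mtbp on the other strand. Mrpl21, a relative of a bacterial protein, stood at 46.7, 50.7 and 49.9 FPKM in sham and at 42.6, 40.5 and 44.9 in paced mice. Mrpl30 stood at 451, 433 and 507 and at 403, 415 and 373. In both genes every paced value lay below every sham value, with log2 fold changes of -0.20 and -0.22 and limma adjusted p of 0.540 and 0.553. Mrpl45, which sits at the exit of the nascent chain and anchors the ribosome to the inner membrane, stood at 46.5, 47.6 and 46.9 FPKM in sham and at 41.8, 43.8 and 37.8 in paced mice. Its 3 sham values were close together, and every paced mouse lay below them. Mrpl42, the most abundant member, stood at 873, 823 and 1004 and at 745, 781 and 792, without overlap. A near-identical copy of Mrpl42 exists in the annotation but has no FPKM value under its name. Fragments from the copy could have been counted for Mrpl42, and how shared fragments were assigned is not stated.

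The other large-subunit genes with a low p were Mrpl3, Mrpl44 and Mrpl47, and for the first pair defects are known as a cause of cardiomyopathy. Mrpl3 stood at 71.8, 84.7 and 86.5 FPKM in sham and at 69.2, 71.6 and 70.3 in paced mice, sham 1 lying just above the paced values. Mrpl44 stood at 49.7, 56.0 and 52.2 and at 47.8, 49.2 and 41.1, again with sham 1 near the paced range. Mrpl47 stood at 43.3, 41.9 and 40.1 and at 36.5, 31.3 and 40.7, where sham 3 and pacing 3 overlapped. The log2 fold changes of these 3 genes were -0.20, -0.19 and -0.21. For the stalk the picture was mixed. Mrpl12 stood at 317, 313 and 356 FPKM in sham and at 283, 332 and 273 in paced mice, with pacing 2 inside the sham range (log2 fold change -0.15, SE 0.10, 95% interval -0.38 to 0.077). The stalk base genes Mrpl10 and Mrpl11 had log2 fold changes of -0.090 and -0.031 and overlapping groups. The scarce transcripts Mrpl17, Mrpl57 and Mrpl19 had log2 fold changes of -0.17, -0.16 and -0.092. Mrpl17 stood at 8.30, 8.40 and 8.36 FPKM in sham and at 7.75, 7.51 and 6.70 in paced mice, without overlap even at this low level. Mrpl40 and Mrpl38, both added in mitochondria, were the large-subunit genes with a positive value (0.015 and 0.0018), named here after their values were seen.

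Among small-subunit genes Mrps9, whose bacterial relative lies in the head of the subunit, had the lowest p of all members. Its FPKM was 76.4, 85.1 and 90.5 in sham mice 1 to 3, against 70.4, 71.1 and 67.6 in paced mice 1 to 3 (log2 fold change -0.26, SE 0.08, 95% interval -0.46 to -0.069, limma adjusted p = 0.476). The 3 paced values were close together and below every sham value, of which sham 1 was the nearest. Mrps9 lies on chromosome 1 from 42851233 to 42905683 on the plus strand. Mrps36, the dehydrogenase subunit that carries a ribosomal name, came next at 157, 152 and 166 FPKM in sham and 147, 133 and 118 in paced mice (log2 fold change -0.25, SE 0.10, adjusted p = 0.519 in limma). Its groups did not overlap, and pacing 3 was the lowest. Mrps22, in which defects impair assembly of the small subunit and cause severe infantile disease of heart and other organs, stood at 28.5, 32.4 and 28.8 and at 26.6, 26.3 and 25.4, without overlap. Mrps35, Mrps11, Mrps14 and Mrps23 also had every paced value below every sham value, with log2 fold changes of -0.17, -0.16, -0.17 and -0.17. Mrps21, the most abundant small-subunit transcript, stood at 360, 419 and 437 FPKM in sham and at 343, 348 and 361 in paced mice. There sham 1 lay at the level of pacing 3, and a near-identical copy of the gene exists in the annotation.

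Further small-subunit genes had negative values with overlapping groups. Mrps16, Mrps2 and Mrps27 had log2 fold changes of -0.18, -0.11 and -0.15, and Mrps12, whose bacterial relative belongs to the decoding centre, of -0.095. Mrps30, which sits in the large subunit, was at -0.16. The paralogs of one bacterial protein, Mrps18a, Mrps18b and Mrps18c, differed in level, with means of 98.9, 34.4 and 116 FPKM over the 6 mice. Their log2 fold changes were -0.094, -0.15 and -0.14. Mrps25, the scarcest small-subunit gene, stood at 13.1, 13.1 and 14.8 FPKM in sham and at 13.5, 13.1 and 13.1 in paced mice, so that only sham 3 stood apart. By origin, the median log2 fold change was -0.12 in the 29 large-subunit genes with a bacterial relative and -0.099 in the 18 added in mitochondria, and -0.14 in 15 and -0.16 in 10 such genes of the small subunit. In the large subunit all 29 genes with a bacterial relative and 16 of the 18 added in mitochondria were lower, and in the small subunit 13 of 15 and 9 of 10. These counts do not cover every member. Mrps18c was counted with the bacterial relatives, whereas Mrps18a and Mrps18b were kept apart as further copies. Mrpl55, Mrps28 and Mrps36 were not classed.

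The small-subunit genes with a positive value were Mrps6, Mrps10 and Mrps26, named here after their values were seen. Mrps6, a relative of a bacterial small-subunit protein, had 68.0, 46.3 and 63.5 FPKM in sham mice 1 to 3, against 56.3, 79.4 and 64.4 in paced mice 1 to 3 (log2 fold change 0.17, SE 0.17, adjusted p = 0.799 in limma). It was the most variable member in both groups, with coefficients of variation of 19.3% and 17.6%, and its groups overlapped widely. Its lowest mouse was sham 2 and its highest pacing 2, as for the summed atrial muscle markers. Single atrial markers differed in this, since Nppa, Nr2f2 and Bmp10 were highest in sham 1 and Dkk3 in pacing 3. The log2 fold change was positive in 8 of 8 atrial markers, where 51.8% of all genes tested were lower, and the groups overlapped in every one. The median atrial marker stood at -3.80 in sham 2, and Bmp10 had a lower mean FPKM in paced than in sham mice (27.9 against 35.5). The 8 atrial markers summed to 12845, 449 and 5386 FPKM in sham mice 1 to 3, against 5845, 14890.3 and 10667 in paced mice 1 to 3, and none was at the floor in any mouse. The sum and Mrps6 were ordered alike except for sham 3 and pacing 1, and the part of atrial tissue in the value was not tested. In the annotation Mrps6 also shares exon sequence with Slc5a3, a transporter gene, on the same strand. Mrps10 and Mrps26 had log2 fold changes of 0.028 and 0.029, with sham 1 lowest in both.

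Among genes that work with the mitochondrial ribosome most but not all had a lower mean in paced ventricles, none passing an adjusted p under 0.05. Their counts stand beside shares over all genes tested of 51.8% lower and 6.97% lower with groups that did not overlap. Of 6 mitoribosomal proteins with other names, 6 were lower with a median log2 fold change of -0.097, 2 of them with groups that did not overlap. Among them the small-subunit protein gene Chchd1 stood at 191, 179 and 238 FPKM in sham and at 169, 169 and 162 in paced mice, and the pentatricopeptide protein gene Ptcd3 at 85.6, 107 and 99.7 and at 84.0, 83.2 and 83.9. Of 18 translation factors 14 were lower and 4 higher (median -0.15), and in 7 of the lower ones the groups did not overlap. The elongation factor gene Gfm1 stood at 80.4, 116 and 93.0 FPKM in sham and at 73.7, 76.9 and 69.7 in paced mice. Slirp, which with Lrpprc stabilizes mitochondrial messages, stood at 176, 172 and 185 and at 128, 162 and 139. Every paced mouse lay below every sham mouse in both genes, whose log2 fold changes were -0.37 (SE 0.13, limma adjusted p = 0.492) and -0.32 (SE 0.10, limma adjusted p = 0.470). Of 22 genes for the charging of mitochondrial tRNAs 17 were lower and 5 higher (median -0.085), and in 1 of the lower ones the groups did not overlap. This list holds aminoacyl-tRNA synthetases and the amidotransferase subunits Gatb, Gatc and Qrsl1. The smallest p-values were those of the leucine enzyme gene Lars2 and the threonine enzyme gene Tars2, at -0.31 and -0.27. Of 28 factors for assembly and ribosomal RNA modification 19 were lower and 9 higher (median -0.074), 6 and 1 of them with groups that did not overlap. Among the lower ones was Nsun4, which modifies the small ribosomal RNA and joins the subunits, at -0.26. Of 22 genes for mitochondrial transcription and RNA processing 19 were lower and 3 higher (median -0.095), with the ribonuclease gene Pnpt1 at -0.19. In 4 of the lower ones the groups did not overlap. This list shares genes such as Slirp and Lrpprc with the translation factors.

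In the complexes that receive the products of mitochondrial translation most nuclear genes had a lower mean, against 51.8% of all genes tested. Of 36 complex I genes 35 were lower with a median log2 fold change of -0.14, and of 37 genes of complexes III and IV and of ATP synthase 36 were, with a median of -0.15. Complex II, which has no subunit made in mitochondria, had 4 of 4 genes lower and a median of -0.14. Ndufab1, the acyl carrier protein of complex I and also an assembly factor, stood at 548, 591 and 586 FPKM in sham and at 444, 488 and 454 in paced mice, without overlap (log2 fold change -0.32, SE 0.08, adjusted p = 0.399 in limma). The other genes with the lowest p of these lists were Ndufs4 (-0.20), cytochrome c, Cycs (-0.26), the muscle isoform Cox7a1 (-0.28), Sdhd (-0.22) and Sdhb (-0.14). By mouse, the median complex I gene had values of -0.046, 0.064 and 0.18 for sham mice 1 to 3, against -0.025, -0.027 and -0.15 for paced mice 1 to 3, the same extremes as for the ribosomal proteins. Of 14 regulators of mitochondrial biogenesis 9 were lower, with Tfam at -0.16 and Gabpa at -0.22, and Nrf1 stood at 0.15. Cytosolic ribosomal proteins, by contrast in number, had 31 of 78 genes lower and a median of 0.019, with Rps28 at -0.19 and Rps27l at -0.22. Their median gene stood at 0.00023, -0.16 and 0.13 in sham mice 1 to 3, against 0.014, 0.025 and -0.0090 in paced mice 1 to 3. Sham 3 was thus highest here too, but sham 2 was lowest. Whether the cytosolic set differs from the mitochondrial set was not tested.

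**Figure D4:**
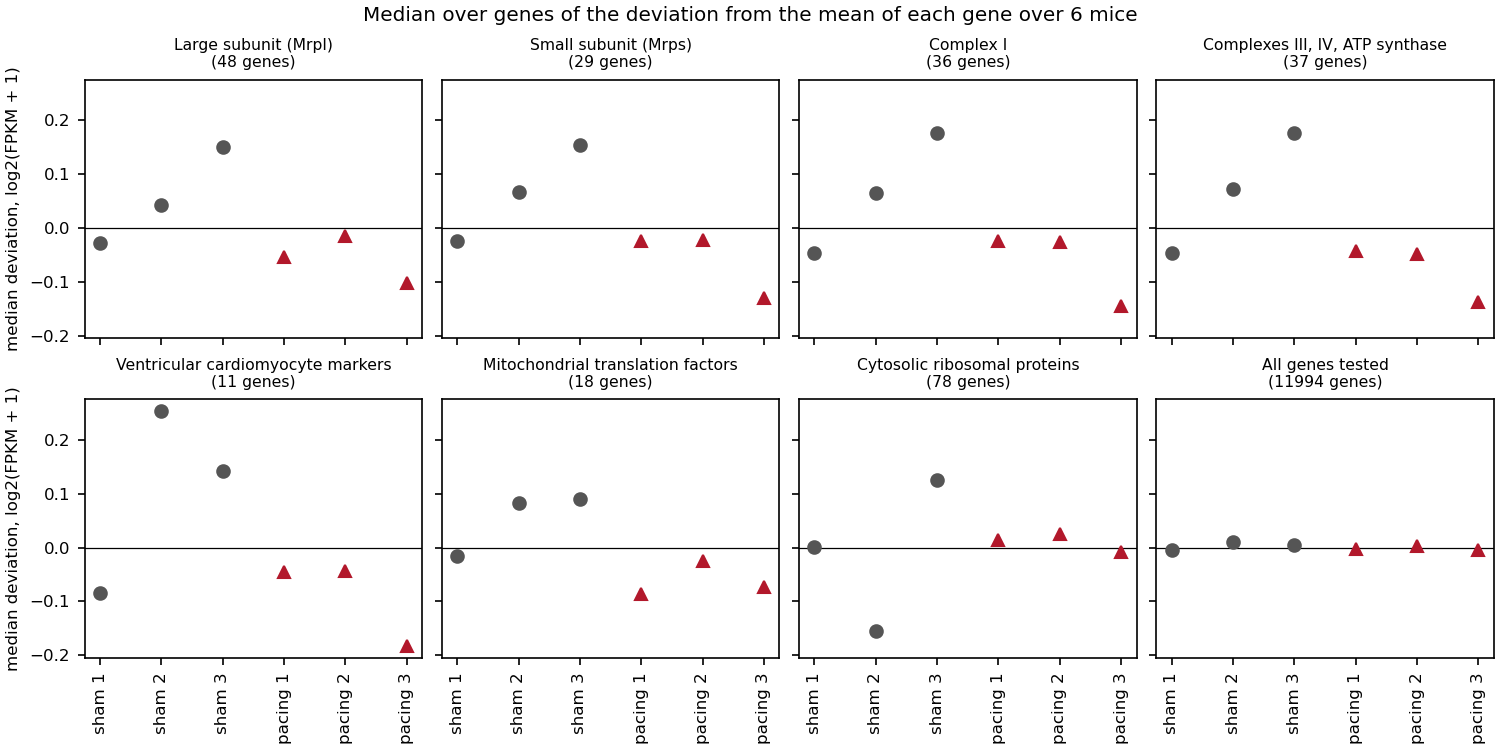
Median over the genes of a list of the deviation from the mean of each gene over the 6 mice (vertical axis, log2(FPKM + 1)) in each sham mouse (circles) and paced mouse (triangles). Sham 3 is highest and pacing 3 lowest in both subunits and in the respiratory complexes, sham 1 lies near the paced mice, and the median of all genes tested runs from -0.0055 to 0.0098.

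Several lists of cell type markers also had most genes shifted in one direction, with none passing an adjusted p under 0.05 in limma. All 11 ventricular cardiomyocyte markers were lower in the paced group, with a median log2 fold change of -0.22, and their sum was 70723 to 91590 FPKM in sham and 67803 to 69641 in paced mice. The median marker stood at -0.085 in sham 1, within the paced range of -0.18 to -0.044, as the ribosomal protein genes of sham 1 did. The other sham mice were ordered differently, with the markers at 0.25 in sham 2 and 0.14 in sham 3, whereas the ribosomal protein genes were highest in sham 3. Among adipocyte markers 9 of 9 tested were higher, none of the 10 was at the floor in any mouse, and their sum was 1630.0 to 2008 FPKM in sham and 1836 to 2598 in paced mice. Most of that sum was Fabp4 (log2 fold change 0.032), and without it the sum was 293, 67.2 and 48.6 FPKM in sham mice 1 to 3 and 646, 388 and 334 in paced mice 1 to 3. Among lung markers 9 of 10 were higher, with sums of 348 to 394 and of 319 to 2077 FPKM, and 7 of the 10 were at the floor in at least 1 mouse. Nearly all of the sham sum was Hopx, the marker with a negative log2 fold change (-0.18), and without it the sum was 5.34, 0.482 and 1.34 FPKM in sham mice 1 to 3 and 2.63, 315 and 1728 in paced mice 1 to 3. These sums without Fabp4 and Hopx were chosen after the values were seen. Fibroblast markers had 10 of 10 genes higher and macrophage markers 9 of 9. Endothelial markers had 7 of 8 genes lower, erythrocyte markers 3 of 4 tested higher and brown adipocyte markers 3 of 4 tested higher. Their part in the lower values of the mitochondrial ribosomal protein genes was not tested. With the level of 3 adipocyte genes as a covariate, a term tied to the group, the medians were -0.024 and -0.042. Lower were 28 of 48 and 16 of 29 genes, against 48.7% of all genes tested.

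The authors' deposited table gave the same direction from their own test. It listed no member as changed, where the authors' deposited table called 1.23% of its 24341 rows higher and 0.152% lower. In the authors' deposited table the lowest q-values of members were 0.442 for Mrps9, 0.488 for Mrpl13 and 0.536 for Mrps36. Their log2 fold changes in the authors' deposited table were -0.27, -0.26 and -0.25.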

How the data were processed

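The members and gene lists were chosen with earlier results of these data known. Per the submitters' processing notes, reads were handled with FastQC 1.0.0, TopHat2 2.1.0, Bowtie2 2.2.6, Cufflinks and Cuffdiff on mm10. The sources used here do not name the annotation or the settings. The authors deposited FPKM per gene and mouse, with 0.01 where no fragment is reported, and a table with group FPKM, a log2 fold change, a q-value (a p-value adjusted by the authors) and a call, per the file headers. FPKM is not a count, so limma 3.58.1 (R 4.3.3) compared the groups on log2(FPKM + 1) for the 11994 genes whose mean FPKM reached 1 (two-sided moderated test, trended variance, no covariate, Benjamini-Hochberg adjustment over these genes). The fit was tested on simulated data with independent noise per gene and log2 changes of 1 up or down. Those settings do not cover small shifts shared by many genes, as seen in the members. A fold change of log2(FPKM + 1) understates the change of low genes. The gene with a failed estimate in 1 mouse was left out. The series design names separate animals, so p-values measure the spread between mice. Effective depth came from whole-fragment steps in low values of 334 genes with 1 exon, within 0.05 of a fragment, with the length shortened by 167 bases. Counting error limits the precision of low members. The strand column of the table reads plus for all 77 members, so strands, coordinates and exon overlaps are from GENCODE M21 (GRCm38). Exons of 23 members overlap another protein-coding gene, 20 of them on the other strand, and the counting's strand setting was not stated. A near-identical copy (95% identity over 50% of the longest coding transcript, blastn 2.17.0) was found for 6 members, Mrpl22, Mrpl23, Mrpl27, Mrpl42, Mrps10 and Mrps21, whose values are uncertain. None of these copies has an FPKM value under its name. Promoters of 9 members, Mrpl13 among them, were not used here. Named members are the 8 with the smallest p, the 3 highest and 3 lowest in level per subunit, and 15 fixed for their roles, and of each related list the 2 with the smallest p. Each mouse was left out in turn, and other runs used a pseudocount of 0.1 or 0.5, a filter at 5 or none, 3 rescalings, untrended or robust variance, weights per library, the replicate number as a block, an adjusted threshold of 0.1, and a q-value under 0.01 for the authors' table. Added after seeing the data were a fit without pacing 2 and pacing 3 and a covariate for Adipoq, Plin1 and Cidec.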

Additional observations from a re-analysis of the deposited data

How the results depend on the processing

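No member passed the adjusted threshold under any of the alternatives, and no gene of the related lists did. The median difference of both subunits was negative under every alternative. It moved beyond the spread between mice when FPKM was rescaled to the same sum (large -0.036, small -0.061), for the small subunit only just. It also did with the adipocyte covariate (-0.024 and -0.042), where 28 large-subunit and 16 small-subunit genes and 48.7% of all genes were lower. Rescaling moved the median of all genes too, from -0.0068 to 0.062. The medians of the members minus that of all genes were -0.11 and -0.13 in the main fit and -0.098 and -0.12 after rescaling. With the covariate they were -0.029 and -0.047. The causes were not tested. Leaving out each mouse in turn gave medians of -0.16 to -0.059 for the large and -0.18 to -0.088 for the small subunit. With a replicate block, 1 large-subunit and 1 small-subunit gene were lower at an unadjusted p under 0.05 in limma. The share of all genes at that unadjusted p was not counted for this fit. At an adjusted p under 0.05, 7 genes of the whole table were higher and 0 lower in the same fit. The same-numbered mice share only a number: their deviations from the group means correlated at -0.13, -0.022 and -0.020. No paired mice are named in the labels. Among the genes named in the text those that follow changed sign, Mrpl3, Mrps21, Mrps27, Mrps2 and Mrps6 among them, which were not near 0. Over all members, 15 large-subunit and 7 small-subunit genes were higher after rescaling to the same sum, where 32.2% of all genes were lower. There, Mrpl11 was at 0.044 and Mrps25 at 0.030. Centred on medians, Mrpl40 was at -0.0097 and Mrpl38 at -0.023, and with array weights Mrpl38 at -0.025 and Mrps26 at -0.0094. With single mice left out, Mrpl40 ran from -0.011 to 0.045, Mrpl38 ran from -0.044 to 0.050, Mrps10 ran from -0.063 to 0.082, Mrps26 ran from -0.058 to 0.13, Mrpl11 ran from -0.089 to 0.017, Mrps25 ran from -0.070 to 0.012 and Mrpl10 ran from -0.16 to 0.0043. Without pacing 2 and pacing 3, Mrpl10 was at 0.045, Mrpl11 at 0.087, Mrps2 at 0.021, Mrps6 at -0.053, Mrps10 at -0.059 and Mrps26 at -0.098. With the adipocyte covariate, Mrpl3 was at 0.0060, Mrps21 at 0.0082, Mrps27 at 0.016, Mrps18a at 0.050, Mrps25 at 0.018 and Sdhb at 0.038.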
